A study of Mus musculus with 6 samples.

Results

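The 6 genes described here, Zbtb16, Tsc22d3, Klf9, Ddit4, Sgk1 and Fkbp5, were taken by symbol from the 32285 genes of the count tables as genes known to respond to glucocorticoids. Their transcripts were followed in dorsal skin of wildtype FVB males aged p55 to p57 whose backs were shaved and waxed (depilated) to start hair regrowth. There was 1 single-cell library for each time, taken at 0, 4 and 16 h and at 2, 4 and 6 d, and each library held equal cell numbers from 2 mice that were processed separately and then mixed, so the mice within a library cannot be separated. With 1 library a time, no difference between 2 times has a replicate check, time and library cannot be told apart, and the hour of the day at harvest was not given in the sources used here. All groups share the genotype, the strain and the sex, and the labels do not say whether the 0 h skin was waxed before harvest.

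Glucocorticoids such as corticosterone enter the cell and bind the glucocorticoid receptor NR3C1, which is held ready by a complex of HSP90 and its co-chaperones. The bound receptor moves into the nucleus and binds DNA as a dimer, most strongly at a pair of half-sites (AGAACA) that face each other with 3 bases between them, and nearby genes respond within hours. In skin these hormones restrain inflammation and the division of keratinocytes, and they hold hair follicles back from regrowth. Zbtb16 encodes the zinc finger repressor PLZF, Tsc22d3 encodes GILZ, which blocks inflammatory transcription factors, and Klf9 encodes a Krüppel-like transcription factor. Ddit4 encodes REDD1, an inhibitor of the growth kinase mTORC1 that also responds to hypoxia and other stress. Sgk1 encodes a kinase that controls ion channels and is induced by serum, mineralocorticoids and osmotic stress as well. Fkbp5 encodes FKBP51, a co-chaperone that lowers the affinity of the receptor for its hormone and so acts as a brake on the pathway.

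On mm10 (GENCODE vM21 gene models) Zbtb16 (ENSMUSG00000066687) lies at chr9:48654297-48836222 on the minus strand, Sgk1 (ENSMUSG00000019970) at chr10:21882184-21999903 on the plus strand and Ddit4 (ENSMUSG00000020108) at chr10:59949669-59951834 on the minus strand. Fkbp5 (ENSMUSG00000024222) lies at chr17:28399094-28517527 on the minus strand, Klf9 (ENSMUSG00000033863) at chr19:23141226-23168134 on the plus strand and Tsc22d3 (ENSMUSG00000031431) at chrX:140539528-140600659 on the minus strand. Promoter windows from RefSeq on GRCm38.p6, each from 250 bases before to 50 bases after a transcript start, were matched by symbol for 5 of the 6 genes, with 12 windows in all. They were searched on both strands for the half-site AGAACA, which reads TGTTCT on the other strand, and for the E-box CACGTG, which clock proteins bind. The half-site was in 4 of the 12 windows, against 19.0% of all 32851 windows, and the E-box in 2 of the 12, against 7.15%. Windows of the same gene are counted apart here, 6 of them for Sgk1. By gene, the half-site was found for 2 of the 5 (Sgk1 and Tsc22d3) and the E-box for 2 of the 5 (Sgk1 and Fkbp5). The full pair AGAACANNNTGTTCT was in 1 of the 12 windows and in 0.00913% of all windows, which is 3 windows. That window lies before 1 of the 6 Sgk1 starts, and the first base of the pair is 189 bases upstream of the start. A further TGTTCT in it overlaps the E-box by 2 bases.

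Shown are the Sgk1 window with the pair, the Tsc22d3 window with a half-site, the Fkbp5 window with an E-box and the Klf9 window, which holds none of these letters. They stand for 2 genes that were low at 4 h in nearly all cell types (Tsc22d3 and Klf9) and 2 that were not (Sgk1 and Fkbp5). Capitals mark the half-site or the E-box on either strand, and each match is a description of letters only. The windows are chr10:21993640-21993939 (plus strand), chrX:140600473-140600772 (minus), chr17:28486100-28486399 (minus) and chr19:23140976-23141275 (plus).
Sgk1: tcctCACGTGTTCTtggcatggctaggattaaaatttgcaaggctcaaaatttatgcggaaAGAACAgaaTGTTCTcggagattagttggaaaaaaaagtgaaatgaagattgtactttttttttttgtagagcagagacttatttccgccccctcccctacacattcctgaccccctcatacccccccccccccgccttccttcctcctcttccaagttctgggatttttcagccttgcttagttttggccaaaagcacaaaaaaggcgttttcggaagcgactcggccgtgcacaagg
Tsc22d3: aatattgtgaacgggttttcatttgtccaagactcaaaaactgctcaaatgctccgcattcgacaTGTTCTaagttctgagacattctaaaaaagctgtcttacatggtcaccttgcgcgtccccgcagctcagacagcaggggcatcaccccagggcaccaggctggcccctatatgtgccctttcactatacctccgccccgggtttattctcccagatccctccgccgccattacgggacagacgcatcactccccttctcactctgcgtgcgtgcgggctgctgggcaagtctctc
Fkbp5: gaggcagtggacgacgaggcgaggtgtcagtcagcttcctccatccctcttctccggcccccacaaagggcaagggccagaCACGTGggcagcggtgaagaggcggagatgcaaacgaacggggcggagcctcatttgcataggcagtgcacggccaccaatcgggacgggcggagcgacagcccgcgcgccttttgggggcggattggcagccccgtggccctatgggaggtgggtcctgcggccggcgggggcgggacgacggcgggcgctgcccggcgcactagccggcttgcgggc
Klf9: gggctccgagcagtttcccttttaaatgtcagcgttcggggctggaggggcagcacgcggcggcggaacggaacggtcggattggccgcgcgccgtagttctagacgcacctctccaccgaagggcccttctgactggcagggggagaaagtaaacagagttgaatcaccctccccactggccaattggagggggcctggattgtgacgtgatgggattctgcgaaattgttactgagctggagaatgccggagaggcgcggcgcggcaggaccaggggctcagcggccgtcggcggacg

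Levels are given as CPM, the gene's UMIs (distinct transcript molecules tagged in sequencing) for each 1000000 UMIs in all cells of a type in a library. Intervals in parentheses are exact Poisson 95% limits, which cover counting error only. The libraries held 72634390 to 112370376 UMIs, and 50502 of 61031 barcodes were kept as single cells, with a median of 6036.5 to 10531 UMIs a cell. Cell types came from clustering without the listed glucocorticoid, stress and clock genes and from fixed markers. The 13 with at least 20 cells in every library were the basal and suprabasal interfollicular epidermis (IFE.B, IFE.SB and the most differentiated, IFE.SB Lor), the basal and suprabasal upper hair follicle (uHF.B, uHF.SB), 3 outer bulge types that hold hair follicle stem cells (OB1, OB2, OB3), T cells, Langerhans cells, melanocytes and 2 clusters called by their leading genes (Flg/Krt1 and Basp1/Col14a1). The top 10 genes of IFE.B held 1 of its own markers (Thbs1) and 1 of uHF.B (Fcgbp), so these 2 types may not be fully apart. Own markers summed to at least 17702 CPM in the T cells, 68796 CPM in Langerhans cells and 4248 CPM in melanocytes of every library. A total of 430 barcodes occurred in more than 1 library, with 7 to 47 shared by a pair of libraries.

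Across the 13 cell types the 6 genes did not follow a single course. Zbtb16, Tsc22d3 and Klf9 were at least 2-fold lower at 4 h than at 0 h in all 10 epithelial types (the 2 clusters included), and in most of them the later libraries lay between. Ddit4 was also low at 4 h in the epithelium, but at 6 d it was within 2-fold of its 0 h level in 9 of the 11 types tested. Sgk1 was lower at 4 h in the epidermis and upper follicle, close to its 0 h level in the outer bulge and higher in T cells, and Fkbp5 was at least 2-fold lower in none of the 4 types in which it was tested. Of 63 pairs of gene and cell type with a mean of at least 10 CPM over the 6 libraries, 49 were at least 2-fold lower at 4 h than at 0 h on the log2(CPM + 1) scale, which is 77.8% against 14.1% of all pairs tested over all genes. At least 2-fold higher were 3 of the 63, against 20.2% of all pairs. The 6 genes were chosen with earlier results of these data known, so these shares are not independent of that choice. Of the 63 pairs, 6 (5 of Zbtb16 and 1 of Tsc22d3) had a mean under 10 CPM over the 5 later libraries and so entered only through a high 0 h level, which in large part fixes their direction. With the 10 CPM asked of the 16 h to 6 d libraries alone, a filter chosen after the data were seen that uses neither library of the contrast, 44 of 58 pairs were lower (14.3% of all pairs) and 3 higher (19.9%).

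**Figure D1:**
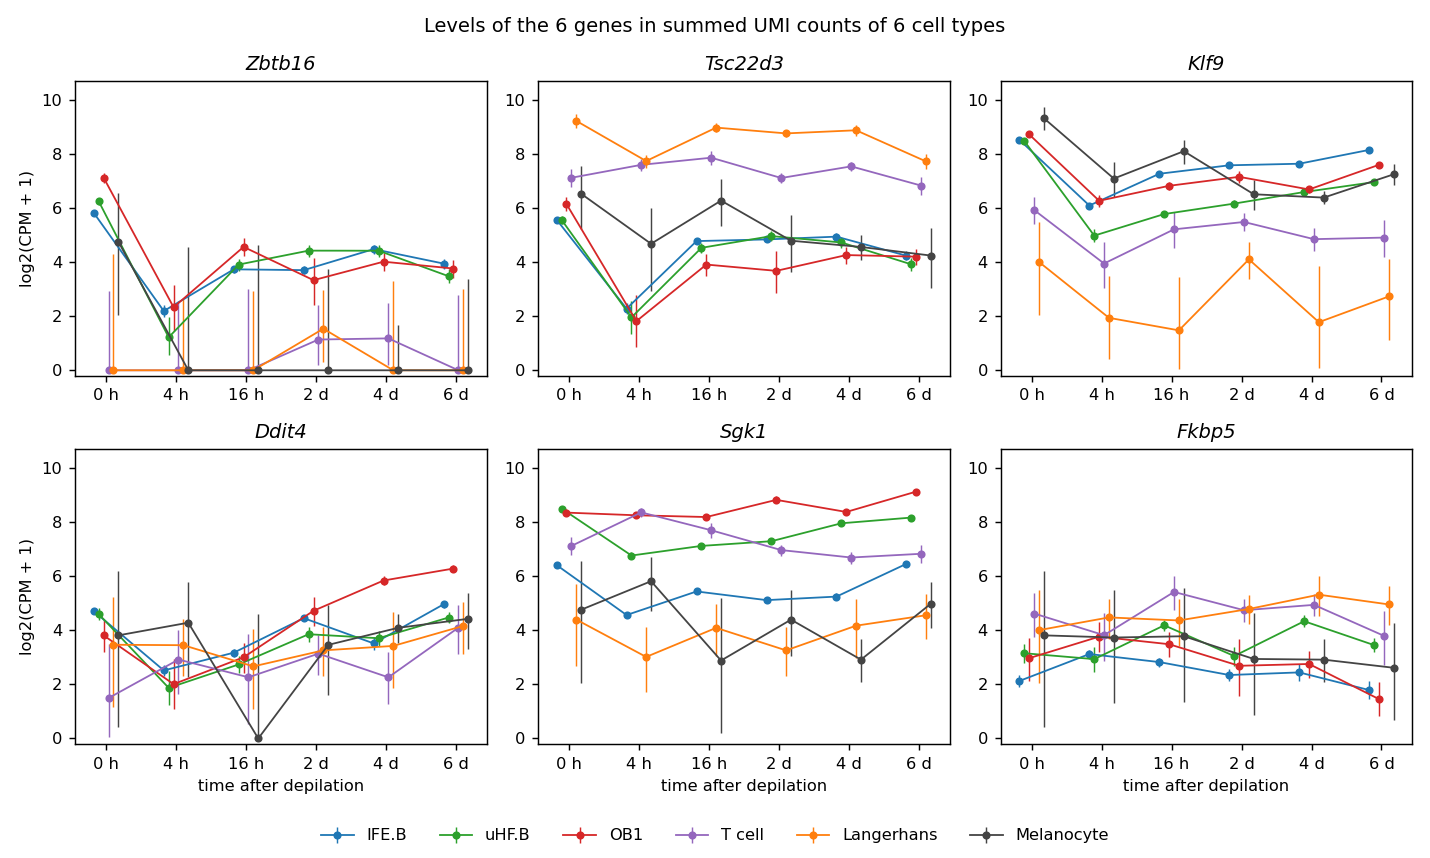
Levels of the 6 genes (log2(CPM + 1), 1 point per library, bars are Poisson 95% limits) against time after depilation, with evenly spaced times, in 6 of the 13 cell types. The lines of Zbtb16, Tsc22d3 and Klf9 in IFE.B, uHF.B and OB1 dip at 4 h, while Sgk1 in T cells is higher at 4 h than at 0 h.

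By the median over its tested types Zbtb16 had the deepest trough. In IFE.B, OB1 and uHF.B, however, the counting intervals of its ratios overlapped those of Tsc22d3. In IFE.B it stood at 55.5 CPM in the 0 h library, 3.57 in that of 4 h and 12.3 in that of 16 h, followed by 12.0 (2 d), 21.4 (4 d) and 14.4 (6 d). The 4 h library was the lowest of the 6 and none of the later ones reached a level near that of 0 h. The 0 h level was 15.6-fold that of 4 h (95% counting interval 12.8 to 19.0). In OB1, the bulge stem cell type with the most cells, Zbtb16 stood at 139, 4.04, 22.7, 9.08, 15.2 and 12.6 CPM in the same order, a ratio of 0 h to 4 h of 34.4 (17.1 to 80.6). In uHF.B the values were 75.1, 1.33, 14.0, 20.5, 20.5 and 10.2 CPM, a ratio of 56.5 (25.8 to 155). In uHF.SB, 115 UMIs at 0 h (69.8 CPM) stood against 0 UMIs at 4 h, which allows up to 3.24 CPM (3 UMIs). The 0 h level was 21.5-fold that limit, a bound that covers counting error at 4 h but not at 0 h. Zbtb16 was likewise at 0 UMIs at 4 h in the Flg/Krt1 cluster, in OB2 and in OB3. There the 0 h level was 22.1-fold the limit, 11.8-fold (from 29 UMIs at 0 h) and 3.48-fold (from 12 UMIs at 0 h). All 10 cell types with a Zbtb16 mean of at least 10 CPM were at least 2-fold lower at 4 h, but 5 of the 10 reached that mean only through the 0 h library, so their direction is in large part fixed by the filter. With the filter on the 16 h to 6 d libraries 6 types were left, and all 6 were at least 2-fold lower. Over the 10, the median log2 difference was -4.91, or -3.78 with the 4 types at 0 UMIs set to 3 UMIs. At 6 d the same 10 were still at least 2-fold lower than at 0 h, with a median of -3.16, which for the 5 types above is again in large part fixed by the filter.

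Neighbouring cell types were not told apart by their Zbtb16 counts at 0 h, but types further apart in the order were. OB1 stood at 139 CPM (223 UMIs), uHF.B at 75.1 (533 UMIs), IFE.B at 55.5 (1516 UMIs) and IFE.SB Lor at 20.3 (253 UMIs). At 0 h Zbtb16 ran from 139 CPM in OB1 down to 0 in T cells and Langerhans cells, and all 12 neighbouring pairs in that order had overlapping counting intervals. T cells held 0 UMIs of Zbtb16 at 0 h, which allows up to 5.46 CPM, and none at 4 h or 16 h. Langerhans cells held none at 0 h, which allows up to 15.1 CPM. Among types with too few cells for all times, the Gzmc/Ltb cluster had 86.5 CPM at 6 d.

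Tsc22d3 was lower at 4 h in 12 of 13 cell types, each by at least 2-fold, with a median log2 difference of -3.44 (-3.29 with the Basp1/Col14a1 cluster at 3 UMIs). In IFE.B its levels were 46.6, 3.86, 26.5, 27.7, 29.8 and 17.9 CPM from 0 h to 6 d. It stood 12.1-fold higher at 0 h than at 4 h (10.0 to 14.7), and the 16 h library already lay well above the 4 h one. In IFE.SB the levels were 69.9, 5.23, 36.4, 31.6, 37.9 and 30.3 CPM, and in OB1 70.3, 2.52, 14.0, 11.8, 18.2 and 17.4 CPM. The OB1 ratio of 0 h to 4 h was 27.9 (11.6 to 87.4). In the Basp1/Col14a1 cluster 20 UMIs at 0 h (85.5 CPM) stood against 0 at 4 h. The 0 h level was 8.63-fold the limit of 3 UMIs at 4 h, without counting error at 0 h. A second low library was that of 6 d, at least 2-fold below 0 h in 12 of 13 types with a median of -1.50.

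The immune cells carried the most Tsc22d3 and differed from each other. Langerhans cells, the resident antigen-presenting cells of the epidermis, had 599, 213, 503, 433, 470 and 211 CPM, with the low values at 4 h and 6 d and a ratio of 0 h to 4 h of 2.81 (2.19 to 3.60). The 8 T cell markers summed in the same Langerhans cells to 815, 19.9, 7.13, 93.4, 156 and 16.9 CPM. They too were high at 0 h and low at 4 h and 6 d, but they were lowest at 16 h, where Tsc22d3 stood at 503 CPM. Their part in this course was not tested. T cells had 138, 193, 232, 137, 185 and 113 CPM of Tsc22d3. Their ratio of 4 h to 0 h was 1.40 (1.05 to 1.87), but 1.15 (0.864 to 1.53) with TMM scaling, so no change between these 2 libraries is settled by the counts. Langerhans cells were highest of the 13 types in every library. In the 10 epithelial types the 8 T cell markers summed to 7.68 to 368 CPM at 0 h and 8.41 to 267 CPM at 4 h, with 0 to 6 of the 8 at 0, and the 7 Langerhans markers to 12.4 to 40.6 CPM at 0 h and 33.0 to 81.1 CPM at 4 h, with 0 to 5 at 0. The 7 melanocyte markers summed to 1.53 to 157 CPM at 0 h, with 0 to 6 at 0, and 1.69 to 29.2 CPM at 4 h, with 2 to 6 at 0. They were lower at 4 h in OB1 (157 to 13.6 CPM, with 4 and 5 of the 7 at 0), OB2 (148 to 21.0 CPM) and uHF.B (19.9 to 3.77 CPM). The part of these cells in the epithelial levels of the 6 genes was not tested.

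Klf9 rests on more counts, with 10036 UMIs in IFE.B at 0 h and 2095 at 4 h. In IFE.B its levels were 368, 67.3, 153, 191, 199 and 284 CPM from 0 h to 6 d, lowest at 4 h and climbing in each later library without reaching the first. The ratio of 0 h to 4 h was 5.46 (5.21 to 5.72). In uHF.B the levels were 357, 30.6, 53.9, 70.8, 95.6 and 124 CPM, a ratio of 11.7 (9.82 to 13.9), and in uHF.SB 242, 14.0, 30.1, 30.6, 47.1 and 45.5 CPM, a ratio of 17.2 (9.94 to 32.6). OB1 had 422, 76.2, 112, 142, 102 and 193 CPM. Melanocytes had the highest level at 0 h, with 640, 135, 274, 90.2, 82.8 and 151 CPM, and a ratio of 4.73 (2.81 to 8.21). T cells had 60.0 CPM at 0 h and 14.4 at 4 h, a ratio of 4.15 (2.05 to 9.11), so in T cells Klf9 was low at 4 h while Tsc22d3 was not. All 12 types with enough Klf9 were at least 2-fold lower at 4 h, with a median log2 difference of -2.38, and 10 of 12 were so at 16 h.

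Ddit4 joined the low levels at 4 h and 16 h and then left them. In IFE.B it stood at 25.1, 4.73, 8.03, 20.9, 10.4 and 30.2 CPM from 0 h to 6 d. The 0 h level was 5.32-fold that of 4 h (4.44 to 6.40), and the 6 d library was the highest. In uHF.B the levels were 23.3, 2.66, 5.67, 13.5, 12.1 and 21.2 CPM, a ratio of 8.74 (4.87 to 17.3). At least 2-fold lower were 9 of 11 types at 4 h and 9 of 11 at 16 h, but only 1 of 11 at 6 d. OB1 went furthest the other way, with 13.1, 3.03, 7.02, 25.4, 56.4 and 77.1 CPM. There the last libraries were the highest, and 6 d lay 2.47 above 0 h on the log2 scale. In OB2 and OB3 Ddit4 was at 0 UMIs at 4 h. The 0 h levels (10 and 17 UMIs) were 4.06-fold and 4.93-fold the limit of 3 UMIs, without counting error at 0 h. In melanocytes (1 and 3 UMIs) and Langerhans cells (2 and 7 UMIs) the ratios of 0 h to 4 h were 0.708 (0.0135 to 8.82) and 1.01 (0.103 to 5.32), and no difference was detectable at this depth.

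Sgk1 divided the skin by compartment. In IFE.B its levels were 84.4, 22.7, 42.4, 33.7, 37.0 and 87.1 CPM, low from 4 h to 4 d and back at the first level by 6 d. In uHF.B they were 363, 108, 138, 156, 248 and 287 CPM, and in uHF.SB 336, 90.7, 176, 185, 309 and 300.3 CPM. The ratios of 0 h to 4 h were 3.72 (3.41 to 4.05), 3.36 (3.05 to 3.71) and 3.71 (2.94 to 4.72). In the outer bulge the 4 h library was not low. OB1 had 326, 305, 291, 453, 332 and 560.4 CPM, a ratio of 1.07 (0.951 to 1.21), while OB2 had a ratio of 1.00 (0.745 to 1.35) and OB3 of 1.06 (0.837 to 1.35). The Basp1/Col14a1 cluster had the highest level of the 13 types at 4 h, with 569, 931, 399, 236, 73.6 and 216 CPM. T cells had 138, 328, 207, 124, 103 and 113 CPM, and 4 h was 2.38-fold above 0 h (1.83 to 3.11), or 1.95-fold (1.50 to 2.56) with TMM scaling, which is under the 2-fold line. Whether the 4 h difference of Sgk1 differs between these types beyond the spread between mice was not tested, since each type comes from the same 1 library a time.

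OB1 at 4 h was itself mixed. Of its 448 cells there, 217 lay in a Krt24-led cluster and 231 in a Cpa4-led one that held 1 cell at 0 h. In the Krt24-led cells alone Zbtb16 went from 139 to 7.43 CPM between 0 h and 4 h, Tsc22d3 from 70.4 to 3.71 CPM, Klf9 from 416 to 83.5 CPM and Ddit4 from 13.1 to 2.78 CPM, so all 4 were lower at 4 h there too. The Zbtb16 ratio of 0 h to 4 h was 18.7 in these cells against 34.4 in the whole type, since the Cpa4-led cells held 0 UMIs of it at 4 h. Sgk1 stood at 315 CPM at 0 h and 400.0 CPM at 4 h in the Krt24-led cells, and at 191 CPM at 4 h in the Cpa4-led cells, so its flat course in OB1 averaged 2 unlike groups of cells.

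Fkbp5, the feedback gene, was scarce in the epithelium and had enough counts in 4 of 13 cell types only. In IFE.B it stood at 3.37, 7.71, 6.09, 4.09, 4.44 and 2.46 CPM. The 4 h level was the highest, 2.29-fold above 0 h (1.79 to 2.94), although its mean was under the 10 CPM asked of a tested pair. Also under that mean, IFE.SB Lor went the other way, from 8.60 CPM at 0 h (107 UMIs) to 4.33 at 4 h (32 UMIs), a ratio of 0 h to 4 h of 1.99 (1.33 to 3.05). In uHF.B it stood at 7.89, 6.65, 17.2, 7.28, 19.2 and 9.96 CPM, and in T cells at 23.6, 13.1, 41.8, 25.8, 29.8 and 12.9 CPM, without a common course. The Basp1/Col14a1 cluster had 8.55, 52.8, 49.1, 21.7, 26.1 and 19.2 CPM, but its 0 h value rests on 2 UMIs in 34 cells and its 4 h value on 16 UMIs in 41 cells, a ratio of 4 h to 0 h of 6.18 (1.45 to 55.4). The sebaceous gland cells (SG), which had only 13 cells at 0 h and so no value there, carried 108 CPM at 4 h (97.4 to 118) and then 62.2, 49.2, 92.3 and 54.0 CPM up to 6 d. Those were the highest Fkbp5 levels of any type with a value at 4 h.

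**Figure D2:**
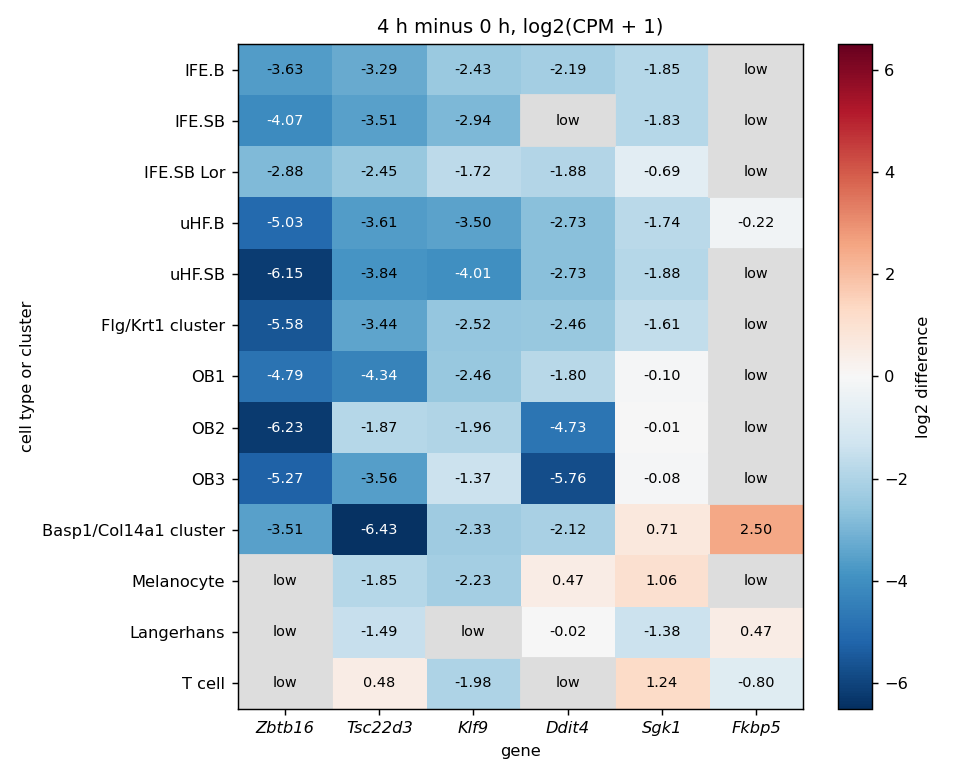
Difference of 4 h and 0 h on the log2(CPM + 1) scale for each gene (columns) in each of 13 cell types (rows), where "low" marks pairs under a mean of 10 CPM. Blue cells are lower at 4 h, from -6.43 for Tsc22d3 in the Basp1/Col14a1 cluster, and the few red cells are higher, up to 2.50 for Fkbp5 in the same cluster. The first value rests on 0 UMIs at 4 h, so the added 1 CPM sets its size, and the second rests on 2 UMIs at 0 h.

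The share of cells with at least 1 UMI of a gene was also taken after each cell was thinned to 2000 UMIs. For Klf9 and Zbtb16 in IFE.B it gave the same order of 0 h and 4 h as the CPM. In IFE.B Klf9 was seen in 46.3% of cells at 0 h (exact binomial 95% interval 44.5 to 48.1, 2980 cells), 11.9% at 4 h (10.8 to 13.0, 3322 cells) and 25.5% at 16 h. Unthinned, these were 84.1%, 38.2% and 69.3%. Zbtb16 was seen in 10.3% of thinned IFE.B cells at 0 h and 0.452% at 4 h, and unthinned in 36.5% and 3.15%. In T cells, which had a median of 2692 UMIs at 0 h against 8689 in IFE.B, Zbtb16 was seen in 0 of 173 thinned cells at 0 h, which allows a share of up to 1.73%. That ceiling is set by the number of T cells and lies above the 0.452% of IFE.B at 4 h. It therefore cannot tell whether that share, from cells holding 111 Zbtb16 UMIs before thinning, is above background. Sgk1 in OB1 was seen in 31.6% of thinned cells at 0 h and 32.0% at 4 h, and unthinned in 51.6% and 47.8%. Its thinned shares were thus close and not in the order of its CPM (326 and 305). Thinning left out 83 cells under 2000 UMIs at 0 h and 327 at 4 h.

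**Figure D3:**
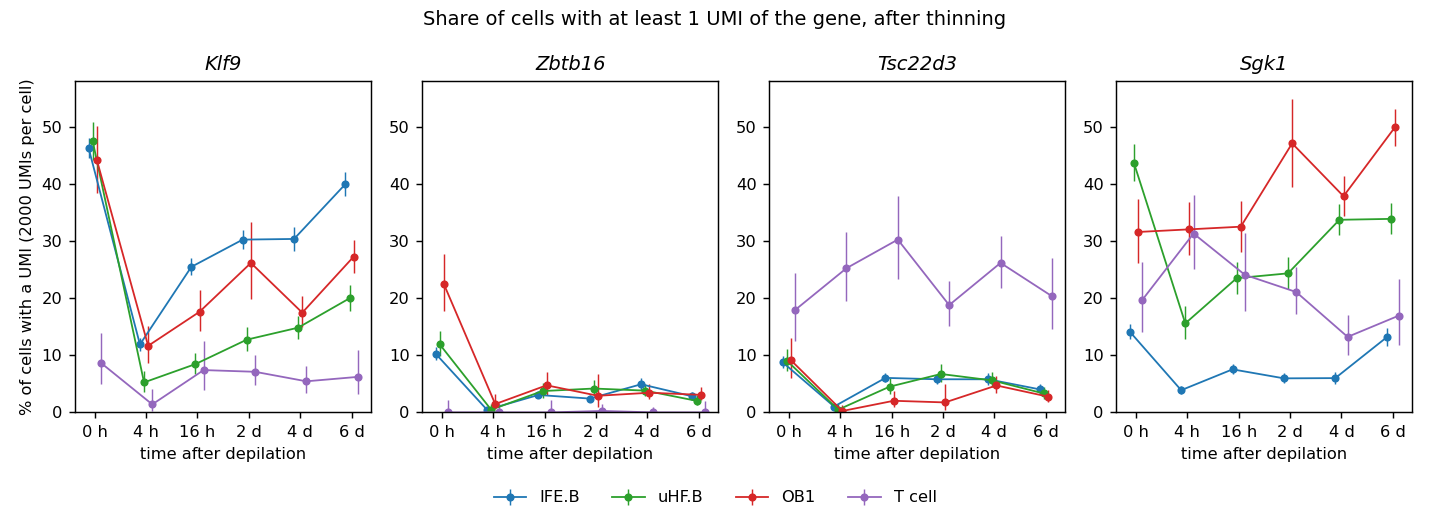
Share of cells with a UMI of Klf9, Zbtb16, Tsc22d3 and Sgk1 after thinning to 2000 UMIs (bars are exact binomial 95% intervals) against time after depilation, with evenly spaced times, in IFE.B, uHF.B, OB1 and T cells. Klf9 in IFE.B goes from 46.3% at 0 h to 11.9% at 4 h, while Sgk1 in OB1 stays at 31.6% and 32.0%.

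After 4 h the low levels persisted in part. The 5 contrasts share the 0 h library, so they are not independent of one another. At 16 h 36 of the 63 pairs were at least 2-fold lower than at 0 h, against 6.77% of all pairs, and 2 were higher, against 15.7%. The 2 d library had 28 lower (8.07%) and 1 higher (11.3%), the 4 d library 30 lower (8.49%) and 4 higher (16.8%), and the 6 d library 31 lower (6.44%) and 2 higher (12.0%). The 6 d count came from Zbtb16 (10 pairs), Tsc22d3 (12) and Klf9 (7), with 1 each of Sgk1 and Ddit4. All 4 of these counts of lower pairs draw on the 63, which include the 6 pairs (5 of Zbtb16 and 1 of Tsc22d3) that entered only through a high 0 h level. For those 6 a lower level at a later time is in large part fixed by the filter. Without the 0 h library, the 4 h level was at least 2-fold below that of 16 h in 34 of the 63 pairs (12.9% of all pairs) and above it in 3 (7.89%), a contrast chosen after the data were seen. Of the 63 pairs, 40 were highest of the 6 libraries at 0 h (16.2% of all pairs), 43 were lowest at 4 h (24.4%) and 33 were both (5.74%). The 6 pairs that entered through 0 h alone had to be high there, and with the filter on the 16 h to 6 d libraries 35 of 58 were highest at 0 h (15.3% of all pairs). The median gene of a type was itself 0.00 to 0.32 higher at 4 h on this scale, and -0.03 to 0.31 with TMM scaling, a shift small beside those of Zbtb16, Tsc22d3 and Klf9.

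A smooth course over time was fitted in each type as a natural spline of hours with 3 degrees of freedom and tested by quasi-likelihood in edgeR, which leaves 2 residual degrees of freedom over the 6 libraries. Of 66 member pairs fitted, 1 passed an adjusted p of 0.05, against 0.405% of all pairs. It was Sgk1 in the Basp1/Col14a1 cluster (edgeR, Benjamini-Hochberg adjusted p = 0.0422), which was high at 4 h and low at 4 d. The cluster changed its make-up over that span: at doubled clustering resolution 578 of its 1496 cells at 4 d, and none at 0, 4 or 16 h, fell among cells named IRS2 (inner root sheath). In the cells placed in the matching Col14a1/Slc7a2 cluster, Sgk1 stood at 569, 918, 399, 240, 103 and 251 CPM, again high at 4 h and low at 4 d, and no course was fitted there. On the axis of hours 0 h, 4 h and 16 h lie close together. On log2(hours + 1) 11 of 66 passed, against 3.72% of all pairs. They were Zbtb16, Klf9 and Tsc22d3 in the Basp1/Col14a1 cluster, Zbtb16, Ddit4, Klf9 and Tsc22d3 in OB1, Ddit4 in OB2, Zbtb16 and Klf9 in uHF.SB and Klf9 in melanocytes. The smallest adjusted p was 2.3e-05, for Klf9 in melanocytes, followed by 0.00059 for Ddit4 in OB1 (both edgeR).

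The rest of the pathway did not share the low level at 4 h as a whole. Of 80 pairs from 8 genes of the receptor, its chaperones and steroid enzymes, 6 were at least 2-fold lower at 4 h (7.50%, against 14.1% of all pairs) and 23 higher (28.8%, against 20.2%), with a median of 0.39. Nr3c1, the receptor gene itself, was lower, by any amount, in 11 of 13 cell types, with a mean log2 difference of 4 h and 0 h of -0.79 over the types. Counts of types and means for named genes of this and the other lists are of the same kind. They take in types under the 10 CPM limit, and the number of types tested is given where it is below 13. In IFE.B Nr3c1 stood at 91.5, 43.7, 71.1, 74.6, 80.0 and 69.6 CPM, so it too was lowest at 4 h. Hsp90ab1, the constitutive HSP90, had a mean of -0.03. The co-chaperone genes Stip1 and Ptges3 were higher in all 13 types, with means of 1.38 and 1.26. In IFE.B Stip1 went from 39.3 to 102 CPM and Ptges3 (p23) from 123 to 410.1 CPM. Hsd11b2, whose enzyme inactivates corticosterone and which is named here after its values were seen, stood in the Basp1/Col14a1 cluster at 0 UMIs at 0 h and 4 h, which allows up to 12.8 and 9.91 CPM, and then at 1.37, 4.11, 128 and 83.8 CPM, so the 16 h and 2 d levels are not above what those counts of 0 allow. The high levels came with the IRS2 cells at 4 d and 6 d, but the Col14a1/Slc7a2 cells alone also had 111 and 59.7 CPM there.

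Among 21 other glucocorticoid-induced genes, 82 of 213 pairs were at least 2-fold lower at 4 h (38.5%, against 14.1% of all pairs) and 11 higher (5.16%, against 20.2%), with a median of -0.59. Txnip, whose protein binds thioredoxin, was lower in 11 of 13 types and went in IFE.B from 221 to 17.8 CPM, then to 78.6, 28.2, 59.0 and 59.9 CPM. Bcl6, a transcriptional repressor, was lower in all 13 types (12 tested), with 73.1 CPM at 0 h and 12.6 at 4 h in IFE.B. At the other end Anxa1 (annexin A1) was higher in 11 of 13, with a mean of 0.43, and Cdkn1a was lower in 6 and higher in 7, with a mean of 0.06. Of the genes that glucocorticoids repress, 22 of 46 pairs were also at least 2-fold lower at 4 h (47.8%) and 10 higher (21.7%). Icam1, an adhesion molecule, was lower in 12 of 13 types (337 to 61.9 CPM in IFE.B). Cxcl1, a neutrophil attractant, was lower in 6 and higher in 6 (7 tested). Ptgs2 (cyclooxygenase) was higher in 8 and lower in 4 (7 tested). Its mean of 1.33 comes from values of -0.74 to 5.75, and in IFE.B it went from 92.6 to 63.8 CPM.

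Lists of handling, clock, hypoxia and stress genes were counted in the same way, against the same 14.1% lower and 20.2% higher of all pairs. Immediate early and dissociation genes were at least 2-fold lower at 4 h in 80 of 205 pairs (39.0%) and higher in 11 (5.37%). Atf3 went in IFE.B from 4520 CPM at 0 h to 1557 at 4 h and Hspa1a, the inducible HSP70, from 184 to 35.0 CPM, while Ier2 was lower in 7 types and higher in 6, with a mean of 0.02, and Jund lower in 10 and higher in 3, with a mean of -0.05. Of clock genes 26 of 103 pairs were lower (25.2%) and 8 higher (7.77%). Bhlhe40 was lower in 11 of 13 types and Nr1d2 in 10, while Dbp was higher in 11 (7 tested). Tef was lower in 9 types and higher in 4 (10 tested), and its mean of 0.21 rests on a single value of 4.99. Hypoxia genes lay near the share of all pairs, with 14 of 106 lower (13.2%) and 24 higher (22.6%). Bnip3 was lower in 12 types and Egln3 in 7 (9 tested for each), while Pgk1 and Ldha were higher in 13. Atf4 targets did so as well, with 12 of 75 lower (16.0%) and 19 higher (25.3%). Nupr1 was lower in 12 types (11 tested) and Vldlr in 6 (8 tested), while Psat1 was higher in 10 (10 tested) and Asns in 13 (12 tested). The part of handling, the clock or hypoxia in the course of the 6 genes was not tested.

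**Figure D4:**
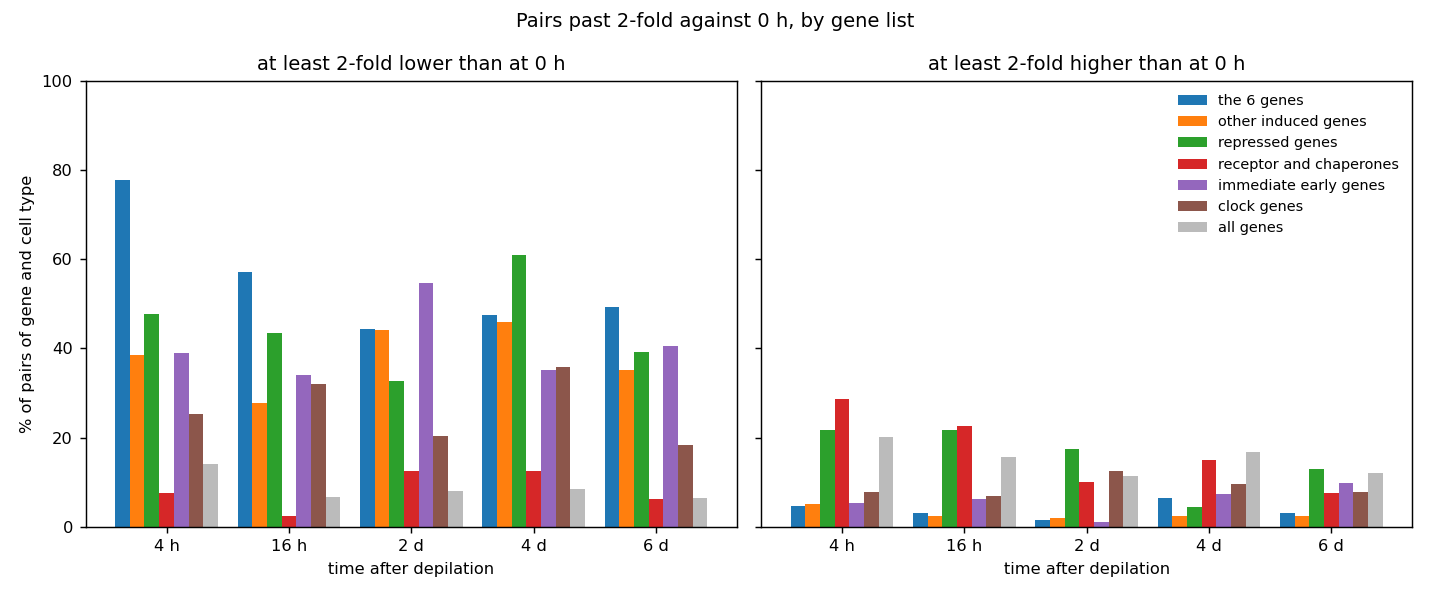
Percent of pairs of gene and cell type that were at least 2-fold lower (left) or higher (right) than at 0 h, for the 6 genes, for the other lists and for all genes tested (grey), at each later time. The 6 genes stand at 77.8% lower at 4 h against 14.1% of all pairs, and all 5 times share the 0 h library. The 6 genes and the lists were chosen with earlier results of these data known.

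Across the 78 sums (13 types by 6 libraries, each type centred on its own mean) the genes most like a member were ranked among 8285 genes by Pearson's r, a description over sums that share libraries and cells. Tsc22d3 was most like Bckdha (r = 0.85), Zfp467 (0.83) and Zbtb16 (0.83), and Zbtb16 most like Tsc22d3, Maf1 (0.82) and Crebrf (0.82). Klf9 was most like Clk1 (0.88), Zbtb20 (0.85) and Bcl6 (0.82). In IFE.B Clk1 stood at 247, 73.1, 118, 154, 173 and 164 CPM and Bckdha at 34.9, 7.46, 28.9, 28.3, 24.5 and 22.2 CPM, each lowest at 4 h. Ddit4 was most like Ypel2 (0.74), Arhgap24 (0.74) and Sox4 (0.74), and Sgk1 most like Gabarapl1 (0.70), Irf1 (0.62) and Icam1 (0.61). Fkbp5 had no close match, with Ccdc97 (0.48), Cat (0.47) and Nfatc2 (0.46) at the top. Among the members themselves, Zbtb16 and Klf9 had r = 0.79 and Tsc22d3 and Klf9 r = 0.72, while Fkbp5 had r between -0.39 and 0.02 with the other 5.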

How the data were processed

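Cells of dorsal skin were measured with the 10x Chromium 3′ kit in 6 libraries. Per the labels, the authors mapped and counted reads with Cell Ranger 6.1.2 on mm10 and deposited filtered matrices of UMI counts with no normalization. Barcodes with 500 to 7000 genes and at most 10% mitochondrial UMIs were kept (55177), and 4675 predicted doublets were removed by rank of the Scrublet score (scanpy 1.11.5) at a rate of 0.8% per 1000 barcodes. Seurat 5.3.0 clustered all cells, then the follicle cells, on 2000 variable genes without 553 list and cycling genes. The rule that leaves clusters with no marker of their own among their top 10 genes unnamed was settled after the data were seen, and names rebuilt here may differ from those of the study. Counts were summed per type and library and scaled to CPM of the summed total. Folds used log2(CPM + 1). The time course used edgeR 4.0.16 with Benjamini-Hochberg adjustment over all genes of a type, and DESeq2 1.42.0 as an alternative. R was 4.3.3. The test scripts were checked on simulated data.

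The 6 genes and all gene lists were chosen with earlier results of these data known. By rule the text names the 6 genes, from each other list the 2 genes with the highest and the 2 with the lowest mean difference of 4 h and 0 h among those tested in most of the types (3 in all for the repressed genes), and the 3 most alike genes for each member. One listed symbol occurred more than once in the tables and was left out. Alternatives were other time axes, no filter, DESeq2, leaving out each library, other pseudocounts, TMM, means of per-cell CPM, a lower CPM limit, doubled clustering resolution and, added after the data were seen, 16 h as the reference and a CPM filter on the 16 h to 6 d libraries.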

Additional observations from a re-analysis of the deposited data

Results flagged for a closer look

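Sgk1 was at least 2-fold higher at 4 h than at 0 h in T cells (1.24 on the log2(CPM + 1) scale, from 76 UMIs at 0 h to 250 at 4 h, but 0.96 with TMM scaling, under the 2-fold line) and in melanocytes (1.06, from 2 UMIs to 9), while it was at least 2-fold lower in 6 other cell types. The opposite directions between cell types drew attention to both values. Each rests on 1 library a time, and the difference between cell types was not tested. In melanocytes the ratio of 4 h to 0 h was 2.12 with a counting interval of 0.439 to 20.2, so the direction there is not settled by the counts.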

How the results depend on the processing

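The counts of pairs at least 2-fold lower than 0 h stayed within 1.5 times at all 5 times under other pseudocounts, a lower CPM limit, TMM, means of per-cell CPM and doubled clustering resolution, with 16 h as reference (34 pairs) and with the CPM filter on the 16 h to 6 d libraries (44 pairs). The small counts of higher pairs moved. At 4 h Sgk1 in T cells was under the 2-fold line with TMM (0.96). At 16 h the 2 pairs became 1 with a pseudocount of 5 CPM or TMM. At 2 d the 1 pair became 0 with a pseudocount of 5, 2 with a limit of 1 CPM and 3 with means of per-cell CPM. At 6 d the 2 became 1 with a pseudocount of 5 and 4 with means of per-cell CPM. Doubled resolution left 51 pairs, as it did not form the Flg/Krt1 and Basp1/Col14a1 clusters anew. IFE.B changed as well, from 16737 cells to 7601. Another 8905 cells formed a Thbs2/Fcgbp cluster, whose top 10 genes held 2 uHF.B markers (Fcgbp and Ly6a) and no IFE.B marker. Its 1 higher pair at 16 h, 0 at 2 d and 1 at 6 d lack the Fkbp5 pair of the Basp1/Col14a1 cluster because that pair has no value there, not because it changed. The time course gave 1 called pair on hours, 11 on log2(hours + 1), 6 on the rank of the time, 5 with no count filter, 4 with DESeq2, 2 without the robust option and 0 with a linear trend. The 0 with doubled resolution comes from 54 pairs without the Basp1/Col14a1 cluster, so it is no second value for the called pair. Leaving out each library gave 3 (without 2 d) to 11 (without 4 h), so each library changed the count by more than 1.5 times: 6 without 0 h, 5 without 16 h and 4 without 4 d or 6 d. The calls over all genes moved as well, so these changes are not particular to the 6 genes. Over all pairs the share called was 0.405% on hours and 3.72% on log2(hours + 1). In OB1, 0 of 10572 genes were called on hours, 1928 of 10750 without 0 h and 402 of 10780 without 4 h. The cause was not tested. No paired analysis was possible because each time has 1 library and the labels give no replicate numbers. Thinning moved 314 of 468 shares of cells by more than their counting interval, as its construction lowers every share. Depth limits Zbtb16, Ddit4 and Fkbp5 most, at 0 to 10 UMIs in several small types.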
